A study of Mus musculus with 4 samples.

Results

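The dual-specificity MAP kinase phosphatases are enzymes that switch off the MAP kinases ERK, JNK and p38. The 10 genes described here, Dusp1, Dusp2, Dusp4, Dusp5, Dusp6, Dusp7, Dusp8, Dusp10, Dusp16 and Dusp22, were taken by gene symbol from a table of 56832 genes, and all 10 were found. Microglia are the macrophages that live in brain tissue, and 4 RNA sequencing libraries of naive microglia were examined. Their donors were untreated female C57BL/6 mice, litter mates of transplanted animals in a study of graft-derived brain myeloid cells. Sorting of dissociated brain kept cells positive for CD11b with low to intermediate CD45, RNA was turned into libraries with a low-input kit, and the graft-derived groups were not analysed here. The libraries carry the replicate numbers 1 to 4 of 1 group, so the values below compare libraries and genes, not conditions. Whether the libraries stem from separate animals is not stated, so a p-value here reflects the spread of these samples alone, part or all of which could be technical.

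A MAP kinase is active only while both a threonine and a tyrosine of its activation loop carry phosphate. These phosphatases, apart from the atypical Dusp22 described below, remove both. Many of the genes are themselves transcribed in response to MAP kinase signalling, so that the enzymes act as negative feedback. In macrophages, Dusp1 is known for limiting cytokine production after Toll-like receptor signalling.

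The unit CPM is a gene's share of all reads assigned to genes in its library, multiplied by 1000000. The libraries held 20360121 to 23292655 such reads, and between 13944 and 18978 genes had a count. Where no read was counted, the level could still be as high as that of 3 counts, or 0.129 to 0.147 CPM, and such limits and all intervals cover counting error only. Microglia markers were abundant: all 8 listed exceeded 1 CPM in every library, with P2ry12 at 7209 ± 1921 CPM and Tmem119 at 5041 ± 1020 CPM (SD, n = 4). The libraries were not alike in other respects. Summed over 18 early response genes, mostly of transcription factors, which respond rapidly to stimuli, levels were 4997, 52059, 41749 and 4918 CPM in replicates 1 to 4.

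Among the nuclear, inducible phosphatases, Dusp1 was by far the most abundant and its level differed widely between libraries. Dusp1 acts on p38, JNK and ERK. Its transcript stood at 540.4, 7672, 10128 and 862 CPM in replicates 1 to 4. Replicates 2 and 3 were high, replicates 1 and 4 low, and the highest library exceeded the lowest 18.7-fold. The mean was 4801 ± 4840.1 CPM (SD, n = 4), which placed Dusp1 at rank 18 among all genes by mean CPM.

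The other nuclear members were far less abundant and had the same libraries high. Dusp2, an inducible phosphatase first known from activated lymphocytes, stood at 0.243, 103, 62.5 and 0.246 CPM in replicates 1 to 4. These levels rest on 5, 2315, 1456 and 5 counts, and the highest library exceeded the lowest 423-fold, the widest ratio among the 6 members with more than 3 counts in every library. The exact 95% interval on the level in replicate 1 was 0.0788 to 0.566 CPM. Dusp5, which acts on ERK in the nucleus, stood at 2.72, 24.98, 20.2 and 0.0982 CPM. In replicate 4 it rested on 2 counts, and replicate 2 exceeded replicate 4 254-fold with a 95% counting interval of 70.1 to 2105.

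Dusp4, a nuclear phosphatase closely related to Dusp1, was the scarcest member. It had 58 and 73 counts in replicates 2 and 3, or 2.57 and 3.13 CPM, and 0 counts in replicates 1 and 4. The level in replicate 3 was 21.3 times the limit of 3 counts in the libraries at 0, a ratio that leaves out the counting error of replicate 3. Across the 4 nuclear members, replicates 2 and 3 thus held the 2 highest levels of each gene. The share of all genes with that order was not counted, so the order is not shown to be particular to these members.

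The cytoplasmic ERK phosphatases did not share that order of libraries. Dusp6, the main ERK phosphatase of the cytoplasm and itself a target of ERK signalling, stood at 889.6, 783, 793 and 488 CPM in replicates 1 to 4. Replicates 1 to 3 lay close together and replicate 4 was lower, for a 1.82-fold range. Its mean was 738 ± 174 CPM (SD, n = 4), at rank 153 among all genes.

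Dusp7, the close relative of Dusp6, stood at 94.9, 17.5, 23.1 and 11.2 CPM. Replicate 1 was high and the other libraries lay between 11.2 and 23.1 CPM. The highest library exceeded the lowest 8.44-fold with replicate 1 and the mean was 36.7 ± 39.1 CPM (SD, n = 4).

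**Figure D1:**
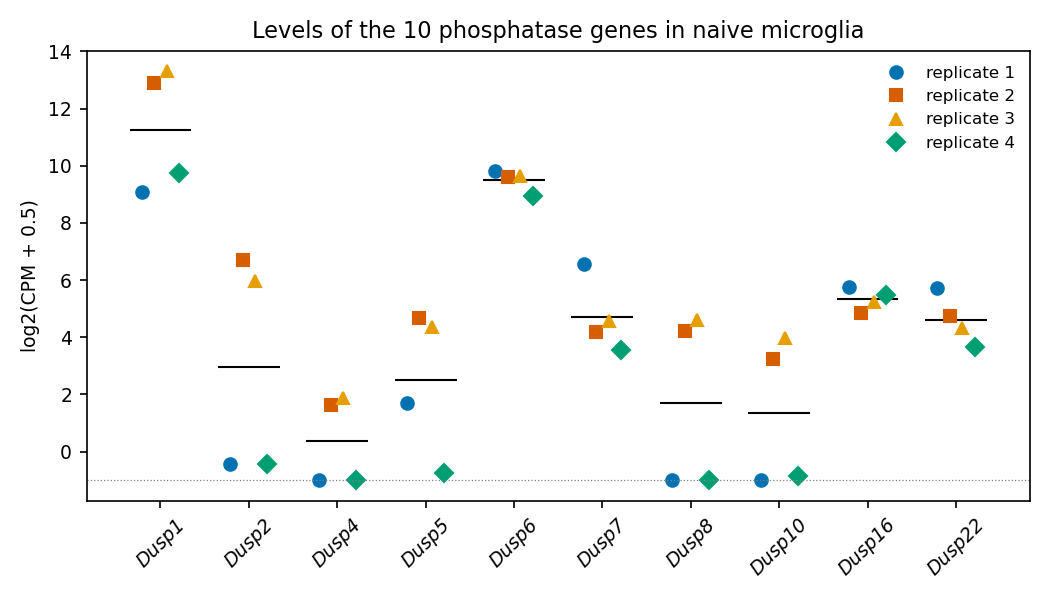
Level of each of the 10 phosphatase genes as log2(CPM + 0.5) in the 4 naive microglia libraries, with 1 symbol per library and a bar at the mean; the dotted line marks a count of 0. Dusp1, Dusp2, Dusp4, Dusp5, Dusp8 and Dusp10 were higher in replicates 2 and 3 than in replicates 1 and 4. The share of all genes with that order was not counted. Dusp6, Dusp7, Dusp16 and Dusp22 were highest in replicate 1.

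The phosphatases that act mainly on JNK and p38 were split. Dusp16, which is known to shuttle between nucleus and cytoplasm, stood at 53.6, 28.2, 37.0 and 44.5 CPM in replicates 1 to 4, with a mean of 40.8 ± 10.8 CPM (SD, n = 4) and a 1.90-fold range. Dusp8 had 413 and 550 counts in replicates 2 and 3, or 18.3 and 23.6 CPM, and 0 counts in replicates 1 and 4. Dusp10 had 202 and 351 counts in replicates 2 and 3, or 8.95 and 15.1 CPM, 0 counts in replicate 1 and 1 count in replicate 4. The level of the highest library was 160.3 times the limit of 3 counts in the libraries at 0 for Dusp8, and 104 times for Dusp10. These ratios leave out the counting error of the highest library. Dusp16 was thus read in every library, while Dusp8 and Dusp10 were read well above the floor in replicates 2 and 3 only.

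Dusp22 is a small atypical member that lacks the kinase-binding domain of the others and is known to affect JNK signalling. It stood at 52.1, 26.4, 19.6 and 12.2 CPM in replicates 1 to 4. Replicate 1 was the highest and replicate 4 the lowest, 4.26-fold apart, with a mean of 27.6 ± 17.3 CPM (SD, n = 4).

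Upstream sequences of Dusp1, Dusp8 and Dusp5 are shown because they hold the elements marked below, and that of Dusp6, which was not high in the same libraries, for comparison. Dusp2 and Dusp10 were high in the same libraries as Dusp1, and their windows held 0 of the marked elements. They are the 250 bases before the annotated RefSeq start in GRCm38.p6, read 5′ to 3′ on the gene's strand; the authors' counts used GRCm39, so these positions belong to the RefSeq table alone. Capitals mark the cAMP response element TGACGTCA and the CArG box, the serum response factor site. The Dusp1 window is chr17:26508473-26508722 on the minus strand, Dusp8 is chr7:142095285-142095534 on the minus strand, Dusp5 is chr19:53528895-53529144 on the plus strand and Dusp6 is chr10:99262981-99263230 on the plus strand.
Dusp1: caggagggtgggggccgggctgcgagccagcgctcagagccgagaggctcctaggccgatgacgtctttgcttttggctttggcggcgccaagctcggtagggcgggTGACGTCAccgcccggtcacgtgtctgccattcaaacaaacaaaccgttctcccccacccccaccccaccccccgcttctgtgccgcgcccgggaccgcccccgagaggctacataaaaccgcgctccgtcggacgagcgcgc
Dusp8: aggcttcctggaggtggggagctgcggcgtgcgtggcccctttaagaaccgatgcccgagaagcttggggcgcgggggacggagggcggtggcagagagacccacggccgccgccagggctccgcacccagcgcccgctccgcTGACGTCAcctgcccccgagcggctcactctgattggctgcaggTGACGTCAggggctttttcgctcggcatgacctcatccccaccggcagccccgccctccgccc
Dusp5: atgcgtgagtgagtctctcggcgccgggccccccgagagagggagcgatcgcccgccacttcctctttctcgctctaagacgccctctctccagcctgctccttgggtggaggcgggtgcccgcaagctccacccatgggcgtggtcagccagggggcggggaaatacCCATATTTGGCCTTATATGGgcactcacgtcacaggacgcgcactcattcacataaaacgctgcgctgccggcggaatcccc
Dusp6: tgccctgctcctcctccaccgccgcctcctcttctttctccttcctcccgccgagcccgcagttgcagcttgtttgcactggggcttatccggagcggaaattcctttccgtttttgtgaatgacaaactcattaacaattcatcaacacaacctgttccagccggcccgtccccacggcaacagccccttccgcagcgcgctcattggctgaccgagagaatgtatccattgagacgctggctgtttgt

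A window was at hand for 9 of the 10 members, all but Dusp4, and both strands were searched. The element TGACGTCA, which reads the same on both strands, occurred 1 time in the Dusp1 window, beginning 143 bases before the start, and at 2 places in the Dusp8 window, beginning 107 and 63 bases before the start. It was in 2 of 9 members and in 1.55% of the 32851 windows of that length in the table. Its core TGACG, which also lies inside the full element, was in 4 of 9 members, Dusp1, Dusp5, Dusp8 and Dusp16, and in 17.8% of windows. The CArG box was in the Dusp5 window alone among the members, at 2 places beginning 82 and 72 bases before the start, and in 1.47% of windows. The AP-1 site TGANTCA and the TATA box TATAAA were in 0 of 9 members, against 6.75% and 12.4% of windows, and the GC box GGGCGG was in 7 of 9, against 32.7%. A match is a stretch of letters, not evidence of binding, which was not measured.

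Over all members, 5 of 10 reached 1 CPM in every library, and 4 of 10 had a library with 3 counts or fewer. Among the 13109 genes averaging 1 CPM or more, which include all 10 members, 27.8% had such a library. By library, 4 members were highest in replicate 1, 2 in replicate 2, 4 in replicate 3 and 0 in replicate 4. The shares of the 13109 genes highest in those libraries were 26.8%, 22.9%, 18.5% and 31.8%.

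The summed level of the 10 genes was 1633, 8684, 11125 and 1419 CPM in replicates 1 to 4. Dusp1 alone made up 33.1%, 88.3%, 91.0% and 60.8% of the counts of the 10 genes. Without Dusp1 the other 9 genes summed to 1093, 1012, 997 and 557 CPM, so the differences of the sum between libraries lay mostly in that gene. Dusp6 was the largest member in replicate 1, with 54.5% of the counts, and second to Dusp1 in replicates 2, 3 and 4, with 9.01%, 7.13% and 34.4%. The JNK and p38 members summed to 53.6, 55.4, 75.7 and 44.5 CPM, a sum that was carried by Dusp16 alone in replicate 1 and shared with Dusp8 and Dusp10 in replicates 2 and 3.

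**Figure D2:**
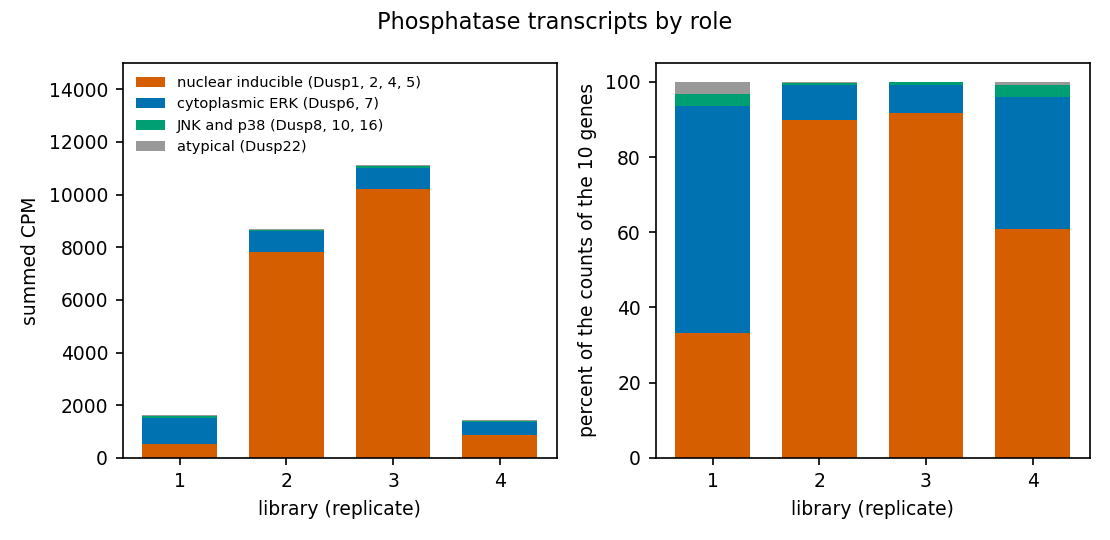
Summed CPM (left) and percent of the counts of the 10 genes (right) by role in each of the 4 libraries, stacked from 0. The nuclear inducible genes took 33.3%, 89.8%, 91.8% and 60.8% of the counts in replicates 1 to 4, and the cytoplasmic ERK phosphatases 60.3%, 9.21%, 7.34% and 35.2%.

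The spread of each member was set beside that of all genes as the difference between its highest and lowest library on the log2(CPM + 0.5) scale, which understates the change of low genes. The median was 3.62 over the 10 members and 1.84 over the 13109 genes averaging 1 CPM or more. A range of 4-fold or more was seen in 8 of 10 members, against 47.3% of those genes. Dusp6, at 0.86, and Dusp16, at 0.92, were the members under that size, and their ranges exceeded those of 19.9% and 21.9% of the genes. The range of Dusp2, at 7.12, exceeded that of 99.9% of the genes, and Dusp8 stood at 5.59, Dusp5 at 5.41, Dusp10 at 4.96 and Dusp1 at 4.23. Without replicate 1 the count was 6 of 10, against 38.6% of the genes, because Dusp7 and Dusp22 then ranged by 1.01 and 1.08.

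**Figure D3:**
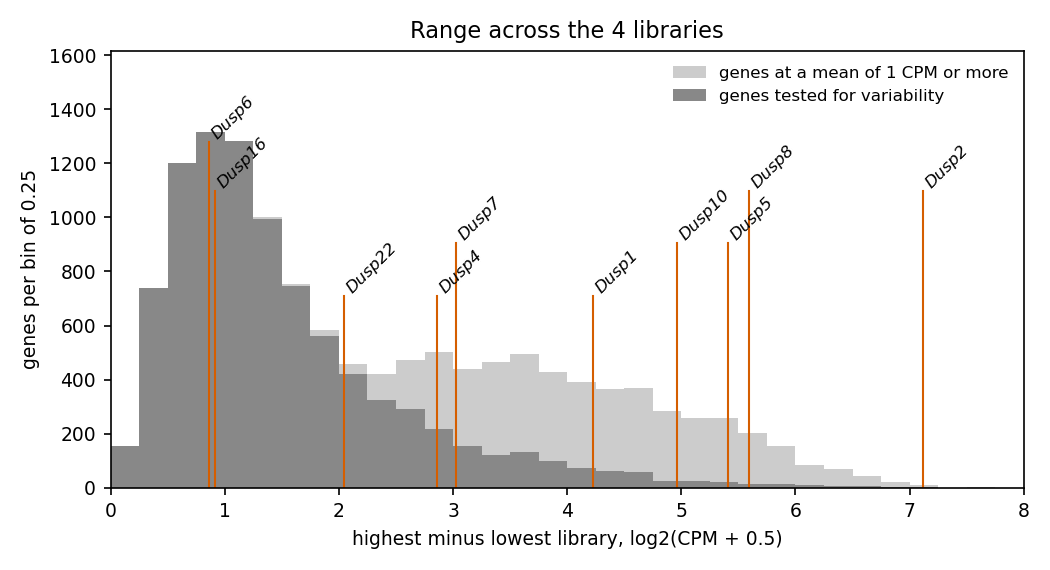
Number of genes by the difference between their highest and lowest library on the log2(CPM + 0.5) scale, in bins of 0.25, for genes averaging 1 CPM or more (light) and for genes tested for variability (dark), with a line at each phosphatase gene. Dusp6 and Dusp16 lie near the peak of the distribution, and Dusp2, at 7.12, lies in its upper tail.

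Whether a gene spread more between libraries than other genes at its level was tested for the 9075 genes with enough counts in all libraries, with edgeR's quasi-likelihood fit and Benjamini-Hochberg adjustment. Dusp1, Dusp6, Dusp7, Dusp16 and Dusp22 entered the test, and the other 5 members fell to its filter on low counts. No member and no other gene passed at adjusted p under 0.05, so 0 of 5 members were called, against 0% of genes. The trend, and the spread of genes around it, were estimated from these same 9075 genes. The test therefore sets genes against each other, and its 0 calls cannot show that the libraries were alike. At an unadjusted p under 0.05 there were 1 member and 390 genes, or 4.30%. That member was Dusp1, whose dispersion was 21.1 times the trend at its level, rank 34 of 9075 genes, with an unadjusted p of 0.0050 and an adjusted p of 0.94 in edgeR's test. Dusp7 followed at 4.997 times the trend (adjusted p = 0.94), then Dusp22 at 1.68 (adjusted p = 0.96), Dusp6 at 1.251 (adjusted p = 0.98) and Dusp16 at 0.34 (adjusted p = 1.00).

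A single library decided the spread of some members. The dispersion of Dusp7 was 0.69 times the trend without replicate 1 and 10.8 times without replicate 4, and that of Dusp6 was 0.03 times without replicate 4. Leaving out 1 library, Dusp1 lay between 13.01 and 29.2 times the trend, lowest without replicate 1. With other edgeR settings it was 37.5 times without a low-count filter and 33.9 times with robust empirical Bayes. DESeq2's own dispersion of Dusp1 was 3.89 times its own trend, a different measure whose size cannot be compared with those of edgeR. A range of 4-fold or more was seen in 3 of the 5 tested members, against 23.0% of genes tested, and in 1 of 5 without replicate 1, against 16.5%.

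Differences between single libraries have no replicate check and are given as values. For replicate 2 minus replicate 1, the log2 differences were 7.12 for Dusp2, 3.83 for Dusp1 and 2.99 for Dusp5, and -0.18 for Dusp6, -0.92 for Dusp16, -0.96 for Dusp22 and -2.40 for Dusp7. The median over the members was 2.80 and over the 13109 genes 0.05. For replicate 3 minus replicate 2 every member lay within 0.72 either way, with a median of 0.30 over the members and -0.01 over the genes. For replicate 4 minus replicate 1, Dusp1 differed by 0.67 and Dusp2 by 0.01, whereas Dusp7 and Dusp22 differed by -3.02 and -2.05.

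Levels of different genes were compared per kb of exon. By mean CPM per kb, Dusp1 was first at 1450 ± 1462 (SD, n = 4) and Dusp6 was next at 236 ± 55.4. Dusp2 followed at 20.7 ± 25.1, Dusp7 at 10.9 ± 11.7, Dusp22 at 5.40 ± 3.39, Dusp16 at 5.24 ± 1.39 and Dusp5 at 4.85 ± 5.02. Dusp8, Dusp10 and Dusp4 were lowest, at 2.15 ± 2.52, 1.98 ± 2.42 and 0.520 ± 0.607 CPM per kb. Between neighbours in that order, Dusp6 lay above Dusp2 in 4 of 4 libraries, with a log2 ratio of 6.63 ± 4.62. Dusp7 lay above Dusp22 in 4 of 4 libraries, with a log2 ratio of 0.70 ± 0.61, but the mean ratio was 0.0061 by the longest protein-coding transcript and 0.098 without length correction, so that order rests on the exon lengths used. Dusp5 lay above Dusp8 in replicates 1 to 3, and in replicate 4 both had fewer than 3 counts, so the order there was not resolved.

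The place of Dusp1 above Dusp6 did not hold in every library. The log2 ratio of Dusp1 over Dusp6 per kb was -0.80, 3.21, 3.59 and 0.74 in replicates 1 to 4, with a mean of 1.69 ± 2.09 (SD, n = 4) and p = 0.38 by an exact permutation of signs (two-sided). Dusp2 over Dusp7 had a mean log2 ratio of -1.73 although its mean level was higher, with Dusp2 above in replicates 2 and 3 and below in replicates 1 and 4. Dusp22 and Dusp16 did not differ beyond their spread, at -0.12 ± 0.86. With 4 libraries the smallest p that test can give is 0.13, the value for Dusp6 over Dusp2 and for Dusp7 over Dusp22, and their adjusted p over the 9 pairs was 0.38. The log2 ratio of the cytoplasmic pair, Dusp6 over Dusp7, was 3.33, 5.58, 5.20 and 5.54 in replicates 1 to 4.

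The rest of the MAP kinase pathway was read from lists by function, with 0 genes called in any of them at adjusted p under 0.05. Of 13 MAP kinase genes, 6 reached 1 CPM in every library. The p38 gene Mapk14 stood at 168 ± 56.1 CPM and the JNK gene Mapk9 at 58.7 ± 9.53 CPM (SD, n = 4). Their dispersion was 1.36 and 0.15 times the trend. At an unadjusted p under 0.05 there was 1 of 6 tested, Mapk6, an atypical MAP kinase, at 9.27, 92.1, 67.6 and 1.08 CPM in replicates 1 to 4 (edgeR adjusted p = 0.94). The JNK gene Mapk8 stood at 19.9, 30.4, 29.2 and 0.0491 CPM in replicates 1 to 4 and fell to the low-count filter through replicate 4. Over the 7 MAP kinase genes averaging 1 CPM or more the median range was 1.05, beside 1.84 over all such genes.

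Upstream, the 7 MAP2 kinase genes had a median range of 1.47, with Map2k1, an activator of ERK, at 169.8 ± 62.0 CPM (SD, n = 4), Map2k2 at 90.1 ± 14.01 CPM and Map2k4, an activator of JNK, at 64.0 ± 13.99 CPM. Of the 5 tested, 0 had an unadjusted p under 0.05. Map2k5 and Map2k6, activators of other MAP kinases, were not tested, and each had 3 counts in replicate 4 against at least 14.2 CPM in the other libraries. Among 10 tested MAP3 and RAF kinase genes, 1 was, Map3k8, which links Toll-like receptors to ERK. Map3k8 stood at 57.0, 247, 273 and 23.6 CPM in replicates 1 to 4, 17.4 times the trend (edgeR adjusted p = 0.94). The kinases Araf and Map3k2 stood at 84.0 ± 10.4 and 58.2 ± 41.5 CPM.

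Of the kinases that MAP kinases activate, 9 of 10 were tested and 0 had an unadjusted p under 0.05, with Rps6ka1 at 476 ± 119.7 CPM, Mknk1 at 172 ± 46.1 CPM and Mapkapk2, a substrate of p38, at 33.2 ± 18.1 CPM (SD, n = 4). Among 12 genes known as feedback targets or inhibitors of ERK signalling, 4 were tested and 1 had an unadjusted p under 0.05, Ier3, an early response gene, at 29.9, 255, 199.98 and 82.4 CPM in replicates 1 to 4 (edgeR adjusted p = 0.94). Etv5, an ERK-responsive transcription factor gene, and Spred1, an inhibitor of RAS signalling to ERK, stood at 109 ± 41.4 and 49.5 ± 29.8 CPM. The order of libraries was mixed in this list. Spred1 was highest in replicate 1 and Etv5 in replicate 4. Other genes of the list, named after their values were seen, were highest in replicates 2 and 3 as Dusp1 was: Errfi1, an inhibitor of the EGF receptor, stood at 16.2, 68.6, 59.2 and 39.6 CPM in replicates 1 to 4. Phlda1 stood at 0.0971, 57.98, 64.8 and 0.295 CPM, and Spred2 at 0, 5.18, 3.31 and 0 CPM.

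Phosphatases outside the 10 genes were also present. Among 15 other dual-specificity phosphatase genes found, 5 were tested and 0 had an unadjusted p under 0.05. Dusp3, which acts on ERK and JNK, stood at 71.6 ± 29.0 CPM (SD, n = 4), the RNA phosphatase gene Dusp11 at 64.3 ± 14.04 CPM and Dusp12 at 23.6 ± 3.33 CPM. Dusp9, the third cytoplasmic ERK phosphatase gene beside Dusp6 and Dusp7, had 0 counts in every library. Of 9 other phosphatase genes known to act on the pathway, 6 were tested and 0 had an unadjusted p under 0.05, led by the scaffold and catalytic subunit genes Ppp2r1a and Ppp2ca at 139 ± 42.4 and 34.4 ± 17.6 CPM and by Ppm1b at 19.6 ± 11.8 CPM.

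The early response genes spread widely, but their list was chosen with earlier results of these data known. Genes read in the same 4 libraries are also not separate observations, so the counts that follow are descriptive. All 17 tested of 18 had an unadjusted p under 0.05, against 4.30% of genes, and 17 of 18 ranged by 4-fold or more, against 47.3% of genes averaging 1 CPM or more. The median ranges over such genes were 3.94 for this list and 3.95 for the other dual-specificity phosphatases. Their 3 highest genes by mean CPM were Jun at 4588 ± 3920.3 CPM, the RNA-binding protein gene Zfp36 at 4520.1 ± 4511 CPM and Junb at 3762 ± 3949 CPM (SD, n = 4), and the 0 calls at adjusted p held for them too. Set against the summed level of this list, Dusp1 amounted to 10.8%, 14.7%, 24.3% and 17.5% in replicates 1 to 4, and Dusp6 to 17.8%, 1.503%, 1.90% and 9.93%.

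**Figure D4:**
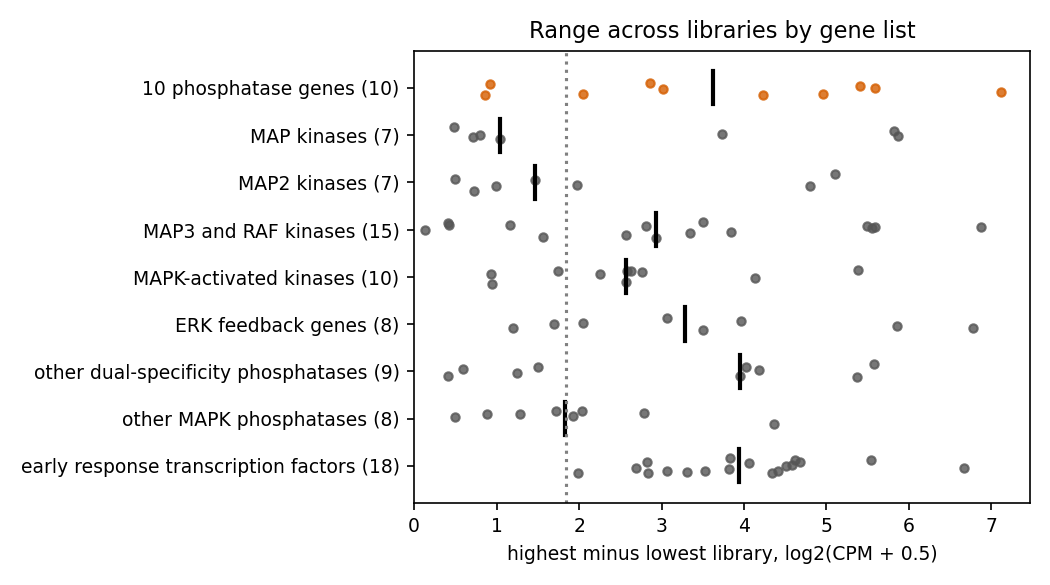
Difference between the highest and lowest library of each gene on the log2(CPM + 0.5) scale, for the 10 phosphatase genes and for each pathway list, counting genes averaging 1 CPM or more (number in brackets); bars mark list medians, and the dotted line marks the median of 1.84 over all such genes. The phosphatase genes span 0.86 to 7.12, and the MAP kinases have a median of 1.05.

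Genes with the profile most like a member were found by the root mean square difference of log2(CPM + 0.5), each gene centred on its own mean over the 4 libraries, among 8175 genes averaging 10 CPM or more. The nearest genes to Dusp1 were Nfkbia, the inhibitor of NF-kappa-B, at a difference of 0.14, H2-K2 at 0.14, Ier2 at 0.17, Ccrl2 at 0.20 and Cd83 at 0.20. Nfkbia stood at 382, 5250.0, 5702 and 505 CPM in replicates 1 to 4. The other members lay farther from Dusp1, with Dusp8 at 0.89 (rank 104), Dusp5 at 1.14 (rank 227) and Dusp2 at 1.60 (rank 1267). The distances of Dusp8, Dusp5 and Dusp2 rest in part on libraries with 5 counts or fewer and on the added 0.5 CPM. Dusp7 lay at 2.55, a distance at rank 7771 of the genes.

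The 2 genes nearest to Dusp6 were Ano6 and Xpo5, each at a difference of 0.02. Those to Dusp16 were Cd68 at 0.01, Gimap6 at 0.03, Mgll at 0.04, Psmd12 at 0.04 and Zdhhc20 at 0.04. Cd68, a lysosomal protein of macrophages, stood at 1507, 818, 1058 and 1265 CPM in replicates 1 to 4. Over the 4 libraries Dusp6 and Dusp16 themselves differed by 0.49. Each profile has only 4 values and 8175 genes were searched, so a near match to any member can be accidental. Shared regulation was not tested.

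**Figure D5:**
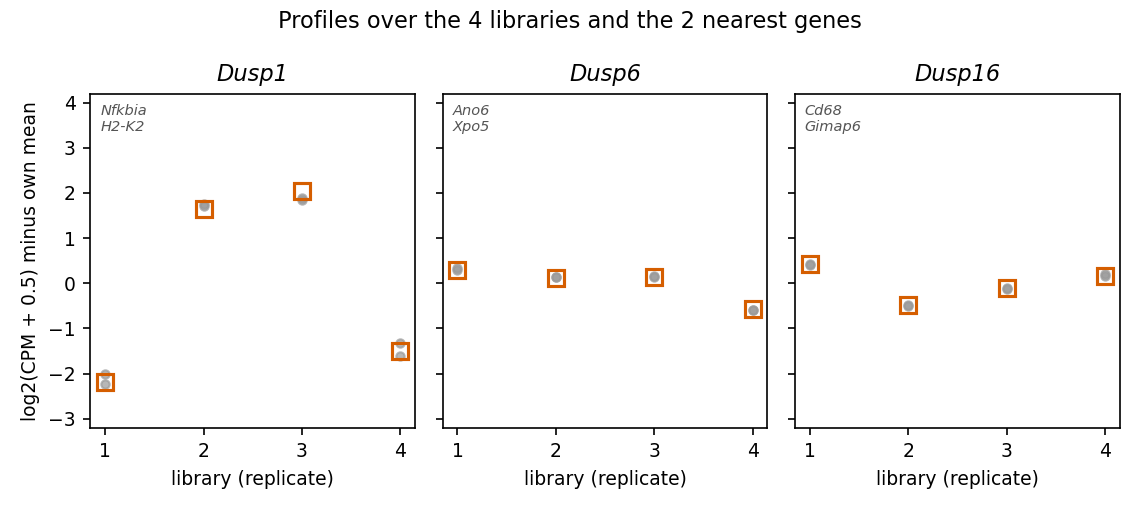
Level in each library as log2(CPM + 0.5) minus the gene's own mean over the 4 libraries, for Dusp1, Dusp6 and Dusp16 (open squares) and the 2 genes nearest to each (grey points, named in each panel). The Dusp1 panel shows replicates 2 and 3 above replicates 1 and 4, and the Dusp6 and Dusp16 panels show values within 1 log2 unit of the mean.

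Other features of the libraries moved with these levels, and their part in the results was not tested. The number of genes with a count was 14850, 18978, 18431 and 13944 in replicates 1 to 4, higher in the libraries where Dusp2, Dusp4, Dusp8 and Dusp10 were well above the floor. Summed over 5 oligodendrocyte markers, levels were 462, 1666, 1717 and 539 CPM in replicates 1 to 4. Over 6 border-associated macrophage markers they were 172, 567, 635 and 355 CPM, and over 4 astrocyte markers 260, 372, 432 and 152 CPM. Within the macrophage and astrocyte lists, Mrc1, Lyve1, F13a1, Pf4, Slc1a3, Aldoc and Gfap were highest in replicates 2 and 3. The others were highest in replicate 4. Ms4a7 stood at 50.6, 58.7, 71.4 and 83.5 CPM in replicates 1 to 4. Cd163 stood at 16.2, 22.2, 24.3 and 32.6 CPM, and Aqp4 at 11.4, 5.45, 8.63 and 19.1 CPM. The sum of the 6 neutrophil markers ran opposite to these sums, at 1453, 266, 257 and 2339 CPM. So did that of the microglia markers, at 56662, 34139, 31958 and 53914 CPM. Mitochondrially encoded transcripts took 0.405%, 0.675%, 0.761% and 0.454% of counts. The lists of B cells, T and NK cells, red blood cells, endothelial cells, mural cells and neurons summed to at most 134 CPM in any library, with the B cell marker Ms4a1 at 0 in all 4, and 3 choroid plexus markers summed to 441 to 2050.0 CPM. In sorted cells counted in bulk, fewer cells of a type and less RNA per cell cannot be told apart.

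Counting without a stated strand setting leaves some members uncertain. In a GENCODE annotation of GRCm38, exons of Dusp1 overlap those of Ergic1 on the opposite strand. Ergic1 had 2636, 1820, 1516 and 3097 counts in replicates 1 to 4, high where Dusp1 was low. Dusp1 itself had 11135, 173203, 235899 and 17559 counts, and the effect of the overlap on them was not tested. Exons of Dusp10 overlap those of 1700056E22Rik, which had 0, 12, 14 and 0 counts, and exons of Dusp16 those of Gm36328, which had 0, 2, 0 and 0 counts. Reads of such opposite-strand overlaps cannot be told apart without strand. Exons of Dusp1 also overlap those of Gm8225 on the opposite strand, which had 5, 3, 5 and 8 counts in replicates 1 to 4. On the same strand they overlap those of AC122252.4 and AC122252.1, where a strand setting would not separate reads. Neither of these symbols was among the counted genes.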

How the data were processed

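Gene counts of 4 naive microglia libraries were used, 1 file per library with 56832 gene rows and 5 closing rows of reads given to no gene. The authors deposited raw counts, with no normalisation, for each gene symbol. Per the submitters' processing notes, HTSeq 0.11.2, SAMtools 1.16.1, STAR 2.7.10a and the build GRCm39 were used, while annotation, strand setting and filters were not given in the sources used here. The closing rows, 20.8% ± 1.28 of the reads listed (SD, n = 4), were left out of totals and tests.

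CPM were computed on the total assigned to genes. Variability between libraries was tested with edgeR 4.0.16 in R 4.3.3 (filterByExpr with a minimum count of 10, TMM scaling, intercept only): each gene's residual quasi-dispersion was set against the trend by an upper-tail F test with Benjamini-Hochberg adjustment over 9075 genes. The biological coefficient of variation was 0.535. Size factors and dispersion outliers of DESeq2 1.42.0 served as alternatives. The script was tested on simulated counts. Exon lengths were the union of exons in GENCODE M21 (GRCm38), matched by symbol for all 10 members. Intervals are exact Clopper-Pearson at 95%. Other values and figures were made in Python 3.11.15 (pandas 2.3.3, matplotlib 3.10.9, scipy 1.17.1).

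The members and lists were chosen with earlier results of these data known. The text names all 10 members, from each pathway list the 3 genes of highest mean CPM, genes of a list under an unadjusted p of 0.05 (chosen after their values were seen, since none was called; for the early response list only the highest 3), and the 5 genes nearest to Dusp1, Dusp6 and Dusp16. Some genes that this rule names are not reported here. Mapk8, Map2k5, Map2k6, Errfi1, Phlda1 and Spred2 were named after their values were seen, as were the single macrophage and astrocyte markers. Alternatives were other scalings, filters, pseudocounts, lengths and leaving out each library.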

Additional observations from a re-analysis of the deposited data

Results flagged for a closer look

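Of 33 values examined for a library standing apart from the other 3, 1 passed Dixon's limit, and chance alone marks about 5% of groups. It was the level of Dusp7, which stood at 94.9 CPM in replicate 1 and at 17.5, 23.1 and 11.2 CPM in replicates 2, 3 and 4. On the log2(CPM + 0.5) scale the same library did not pass that limit.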

How the results depend on the processing

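The count of genes called for variability was 0 in edgeR's fit and in each alternative run, which were DESeq2 size factors, no low-count filter, a filter at a mean of 10 CPM, robust empirical Bayes, the edgeR 4 default fit, leaving out each library and DESeq2's own dispersion outliers. Each edgeR run estimated its trend from the genes it tested, so the repeated count of 0 is not separate evidence. Genes at an unadjusted p under 0.05 numbered 390, and 380 to 483 without 1 library. No pathway list had a call with DESeq2 size factors or without any 1 library. Without any low-count filter the dispersion of Dusp2 was 30.1 times the trend, of Dusp8 10.4, of Dusp10 5.50, of Dusp5 4.80 and of Dusp4 2.65, each with an adjusted p of 0.83. Tested members with a range of 4-fold or more numbered 1 to 3 of 5 without 1 library, lowest without replicate 1, and members in all numbered 6 to 8 of 10. With a pseudocount of 5 CPM the log2 ranges of Dusp2, Dusp4, Dusp5, Dusp8 and Dusp10 were 4.36, 0.70, 2.56, 2.52 and 2.005.

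Neighbour pairs in the stated order in every library, counted from fitted values and 3 in all, Dusp5 over Dusp8 included, numbered 3 to 5 without 1 library, highest without replicate 1, and 2 with no length correction or with the longest protein-coding transcript. Some orders turned or were lost, and the cause was not tested. The log2 ratio of Dusp7 over Dusp22, 0.70, was 0.0061 with that transcript and 0.098 with no length correction. The log2 ratio of Dusp8 over Dusp10 was 0.023 with no length correction, against -0.66. That of Dusp22 over Dusp16 was 0.032 with the longest protein-coding transcript, against -0.12, and without 1 library it lay between -0.35 and 0.26, above 0 without replicate 4. That of Dusp2 over Dusp7, at -1.73 with 4 libraries, lay between -3.40 and 0.28, above 0 without replicate 1. The transcript length, the edgeR 4 default fit and the genes averaging 1 CPM or more were chosen after seeing the data. No paired analysis was possible because the libraries form 1 group. Levels at 3 counts or fewer, those of Dusp4, Dusp8 and Dusp10 in replicates 1 and 4 and of Dusp5 in replicate 4, were not resolved.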

Other observations

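Among dual-specificity phosphatase symbols in no list, chosen after their values were seen, Dusp27 stood at 21.5, 8.59, 19.2 and 3.24 CPM in replicates 1 to 4, and Dusp13 had 0, 5, 1 and 0 counts. In the other dual-specificity list, Dusp28, likewise chosen after its values were seen, had 0, 27, 24 and 474 counts and was highest in replicate 4, a library in which none of the 10 phosphatase genes was highest.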
